A study of Mus musculus with 65 samples.

Results

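The 10 genes described here belong to the heat shock and chaperone system and were followed through 65 RNA-seq libraries of sorted mouse bone and bone marrow cells, out of 47649 genes listed in all. They are Hspa1a, Hspa1b, Hspa8 and Hspa5 of the HSP70 family, Hsp90aa1 and Hsp90ab1 of the HSP90 family, the small heat shock protein gene Hspb1, the HSP110 gene Hsph1, the J-domain co-chaperone gene Dnajb1 and the mitochondrial chaperonin gene Hspd1. The members were taken by symbol, or by Ensembl identifier where symbols were missing, and 10 of 10 were present in each of 3 tables of FPKM (fragments per kilobase of transcript, scaled to the mapped fragments of a library). The list was chosen by gene name, with no cut-off on any value, but FPKM of these libraries and earlier tests on them were known when it was drawn up. The tests below therefore set each difference against the spread between libraries and are no independent support for the list.

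The study compared hematopoietic stem and progenitor cells (HSPCs) and cells of their niche, in homeostasis and after the chemotherapeutic fluorouracil (5FU). The HSPC table held 17 libraries: 5FuReserve, the LSK Flk2- CD34- CD49b- gate on day 3 after 5FU (n = 3), then Primed (LSK Flk2- CD34- CD49b+, n = 3), ST (short-term stem cells, LSK Flk2- CD34+, n = 3), MPP (multipotent progenitors, LSK Flk2+ CD34+, n = 4) and Reserve (LSK Flk2- CD34- CD49b-, n = 4). The last 4 gates carry no treatment in their labels. LSK stands for lineage-negative cells with Sca-1 and Kit on the surface. A further 6 libraries held Tomato-positive N-cadherin reporter cells after 5FU, from bone (5Fu_Ncad_tdT_bone, n = 3) and from marrow (5Fu_Ncad_tdT_marrow, n = 3) of femur and tibia, with no day stated. The homeostatic niche table held 42 libraries of 10 populations. Of these, 8 were sorted as negative for CD45, Ter119 and CD31 and positive for a marker: Tomato in bone (Ncad_bone, n = 4) or in marrow (Ncad_marrow, n = 4), Col2.3-GFP, Ng2-rfp, Nestin-GFP, Cxcl12-DsR and Pecam-GFP (n = 4 each) and Lepr (n = 6). The other populations were CD45+: Mac, without the Pf4-Cre R26-YFP label and F4/80+ (n = 4), and MK, with that label (n = 4). Strain, age and sex were not stated, nor whether each library is another animal. The p-values thus refer to library-to-library spread, which may be technical. A reporter marks cells by the activity of its promoter, now or, for Cre, also earlier, so the populations can overlap.

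Heat shock proteins bind unfolded or newly made proteins and help them to fold, to cross membranes or to be degraded. When misfolded protein builds up in the cytosol, the transcription factor Hsf1 is released from chaperones and binds heat shock elements in the promoters of Hspa1a, Hspa1b, Hspb1, Hsph1 and Dnajb1, whereas Hspa8 and Hsp90ab1 are made constitutively in most cells and Hspa5 answers mainly to unfolded protein in the endoplasmic reticulum (ER). Hspa1a and Hspa1b are also among the genes that tissue digestion and sorting are known to induce, together with immediate early genes such as Fos, and femur and tibia were digested here before sorting.

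The HSP70 pair Hspa1a and Hspa1b lies in tandem on chromosome 17, at chr17:34969190-34972156 and chr17:34956436-34959238 on the minus strand of mm10, with 9951 bases between them. Their longest reading frames were equal at 1918 bases, 99.43% of the longer frame, against 73.93% between Hspa1a and Hspa8, whereas the stretches after the reading frame of the pair were equal at 45.43%. Reads from most of the shared frame carry no difference between the copies, so values are uncertain between Hspa1a and Hspa1b. The predicted gene Gm20481 lies across 2225 bases of Hspa1a on the opposite strand, and Hspe1 shares 112 bases with Hspd1 on the opposite strand; strand use in counting was not given in the sources used here. The other members lie at chr9:40800984-40810087 (Hspa8, plus strand, with the small nucleolar RNA genes Snord14c, Snord14d and Snord14e inside it), chr2:34771970-34777547 (Hspa5, plus), chr12:110690605-110702728 (Hsp90aa1, minus) and chr17:45567775-45573271 (Hsp90ab1, minus). Hspb1 is at chr5:135887919-135889563 (plus), Hsph1 at chr5:149614287-149636376 (minus), Dnajb1 at chr8:83608193-83612653 (plus) and Hspd1 at chr1:55077835-55088243 (minus).

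The 250 bases upstream of the start of 3 members are shown because the interaction of site and 5FU below turns on them: the inducible pair, with a larger bone-to-marrow difference after 5FU, and Hspb1, with an interaction of the opposite sign. Sequences are from RefSeq on GRCm38.p6 (chr17:34972157-34972406 and chr17:34959239-34959488, minus strand, and chr5:135887669-135887918, plus strand), read 5′ to 3′ toward the start, with heat shock elements of 2 head-to-head units (GAANNTTC) in capitals.
Hspa1a: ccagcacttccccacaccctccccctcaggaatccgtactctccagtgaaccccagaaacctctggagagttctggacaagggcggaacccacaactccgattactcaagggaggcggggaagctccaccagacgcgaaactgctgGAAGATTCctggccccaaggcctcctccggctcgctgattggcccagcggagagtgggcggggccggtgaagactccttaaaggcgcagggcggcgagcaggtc
Hspa1b: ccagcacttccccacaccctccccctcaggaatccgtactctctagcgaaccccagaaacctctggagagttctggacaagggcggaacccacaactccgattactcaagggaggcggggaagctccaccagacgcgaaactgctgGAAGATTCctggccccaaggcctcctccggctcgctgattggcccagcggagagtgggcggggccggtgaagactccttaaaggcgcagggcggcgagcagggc
Hspb1: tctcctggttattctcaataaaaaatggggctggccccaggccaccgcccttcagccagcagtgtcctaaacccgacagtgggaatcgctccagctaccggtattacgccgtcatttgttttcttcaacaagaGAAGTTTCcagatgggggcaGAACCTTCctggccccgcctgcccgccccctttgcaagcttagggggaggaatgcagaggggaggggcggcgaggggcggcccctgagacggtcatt
The pair's upstream stretches were equal at 247 of 250 bases and held the same element, GAAGATTC, at position -104 from the start. Hspb1 held GAAGTTTC at -117 and GAACCTTC at -97. Windows of 300 bases, reaching from 250 before to 50 after a start, were available for 7 of the 10 members, with none for Hspa8, Hsp90aa1 and Hsp90ab1. Searched on both strands, GAANNTTC occurred in 7.86% of all 32851 promoter windows and its tail-to-tail form TTCNNGAA in 8.52%, and 15.1% held either. Of the 7 members, 5 held either form, among them Hspd1 with overlapping units (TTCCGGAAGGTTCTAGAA) and Hsph1 with TTCTCGAA at -54, and 2 held neither, Hspa5 and Dnajb1. The window of Hspa5 held an ER stress element, CCAAT and CCACG parted by 9 bases, as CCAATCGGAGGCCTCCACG at -65, a pattern in 0.119% of windows that contains the CCAAT box, itself found in 37.4%. A match describes letters in a window and is no evidence of binding.

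Libraries had 11649 to 14258 genes at 1 FPKM or more. Read totals were not given; the value of the smallest steps put relative depth within 5.46-fold in the HSPC table, 7.09-fold in the niche table and 2.78-fold in the 5FU niche table. Some libraries stood apart or went against their labels. Summed B cell markers, a list of 10 genes, reached 3038 and 3138 FPKM in Reserve replicates 3 and 4, against 51.3 and 77.0 FPKM in replicates 1 and 2, and 79675 to 83186 FPKM in 5FuReserve. Mac libraries carried 383108 to 554499 FPKM of neutrophil transcripts and less of the macrophage list (201 to 275 FPKM) than MK libraries (424 to 1119 FPKM); Adgre1, which encodes F4/80, averaged 19.1 FPKM in Mac and 20.9 FPKM in MK libraries, and the complement gene C1qa 2.09 FPKM in Mac and 98.9 FPKM in MK libraries, so the Mac label rests on the gate and not on these transcripts. Pecam_GFP libraries held the endothelial list at 2145 to 2838 FPKM although their labelled gate reads CD31-. Col2.3_GFP libraries held 3440.0 to 6190.2 FPKM of skeletal muscle transcripts, and Lepr replicate 3 held 6948 FPKM of megakaryocyte transcripts, against 30.8 to 66.8 FPKM in the other Lepr libraries. In bulk libraries, more cells that carry a transcript and more of it per cell cannot be told apart.

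Comparison of 5FuReserve with Reserve cells asked how the same stem cell gate differs on day 3 after 5FU. The ER chaperone Hspa5, the stress-inducible HSP90 gene Hsp90aa1, the mitochondrial chaperonin Hspd1 and, at a very low level, Hspb1 were higher after 5FU, while the inducible HSP70 pair was near the limit of detection in both gates. In limma on log2(FPKM + 1), with p-values adjusted by Benjamini-Hochberg over all tested genes, 4 of the 9 tested members rose and none fell. Of these, Hspb1 passed the filter of 1 FPKM in 3 libraries only through 5FuReserve, where it was high. Its call is therefore no independent result. Over all 16171 genes tested, 48.3% were called, 25.5% as higher and 22.8% as lower, so the members' share lies close to the share of all genes. The added 1 makes log2 fold changes of low genes smaller than those of FPKM itself.

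Hspa5 encodes BiP, the main HSP70 of the ER lumen. Its level was 399, 368 and 424 FPKM in 5FuReserve libraries, against 159.99, 165, 243 and 216 FPKM in Reserve libraries. The groups did not overlap, with a log2 fold change of 1.04 ± 0.22 (SE) and an adjusted p of 0.0012 in limma. Hsp90aa1, the HSP90 isoform that stress induces, had 308, 251 and 279.7 FPKM in 5FuReserve and 184, 164, 136 and 128 FPKM in Reserve libraries. This too was without overlap, at a log2 fold change of 0.87 ± 0.13 (adjusted p = 7.1e-05, limma). Hspd1, the chaperonin HSP60 of the mitochondrial matrix, stood at 77.0, 89.0 and 87.5 FPKM in 5FuReserve and at 45.5, 47.0, 65.5 and 62.8 FPKM in Reserve. Every treated library exceeded every Reserve library, and the log2 fold change was 0.62 ± 0.14 (adjusted p = 0.0022, limma).

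Hspb1, which encodes HSP27, was barely detected in stem cells: 1.57, 2.86 and 1.64 FPKM in 5FuReserve, against 0, 0.199, 0.901 and 1.68 FPKM in Reserve. The groups overlapped, and its call (log2 fold change 0.92 ± 0.29, limma adjusted p = 0.018) was lost with a pseudocount of 0.1 (adjusted p = 0.077), in a fit on the compared groups alone (0.066), without Reserve replicate 1 (0.052) and without 5FuReserve replicate 2 (0.096). Hspa8, the constitutive cytosolic HSP70, was at 852, 872 and 843 FPKM after 5FU and at 481, 463, 754 and 703 FPKM in Reserve cells, and missed the threshold (log2 fold change 0.54 ± 0.22, limma adjusted p = 0.057). Reserve replicates 3 and 4, the libraries with B cell transcripts, were the higher ones for Hspa8. They were also the higher ones for Hspa5, Hsp90ab1, Dnajb1 and Hspd1, and the lower ones for Hsp90aa1. Without them the log2 fold change of Hspa8 was 0.86 (limma adjusted p = 0.011). Without replicate 3 or 4 alone its adjusted p was 0.030 or 0.045. It also passed after median-of-ratios scaling (0.042) and in a fit on the compared groups alone (0.041). The 5FuReserve libraries held more B cell transcripts than any Reserve library. Leaving out Reserve replicates 3 and 4 thus widens that difference between the groups.

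The constitutive HSP90 gene Hsp90ab1 ran the other way in level, at 784, 728 and 726 FPKM in 5FuReserve and 810.03, 801, 917 and 903 FPKM in Reserve, without passing the test (log2 fold change -0.20 ± 0.08, limma adjusted p = 0.057). It passed without Reserve replicate 2 (adjusted p = 0.045), with a mean of at least 5 FPKM (0.049) and after scaling (0.046). The ratio of Hsp90aa1 to Hsp90ab1 in a library was 0.374 ± 0.0260 in 5FuReserve and 0.181 ± 0.0419 in Reserve cells (SD, n = 3 and 4). Hsph1, the HSP110 that exchanges nucleotide on HSP70, averaged 14.8 ± 2.33 FPKM in 5FuReserve and 11.8 ± 0.592 FPKM in Reserve (limma adjusted p = 0.16). Dnajb1, the J-domain protein that hands substrates to HSP70, averaged 53.7 ± 0.185 FPKM in 5FuReserve and 45.3 ± 11.8 FPKM in Reserve (adjusted p = 0.32, limma). Neither difference passed the test. Hspa1b was at 0.239 to 0.470 FPKM in 5FuReserve and at 0.501 to 1.44 FPKM in Reserve (limma adjusted p = 0.17). Hspa1a passed the filter of 1 FPKM in 3 libraries in none of the HSPC comparisons; it was at 0.113 to 0.133 FPKM in 5FuReserve and at 0 to 0.523 FPKM in Reserve, and is reported as listed, with no fold.

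**Figure D1:**
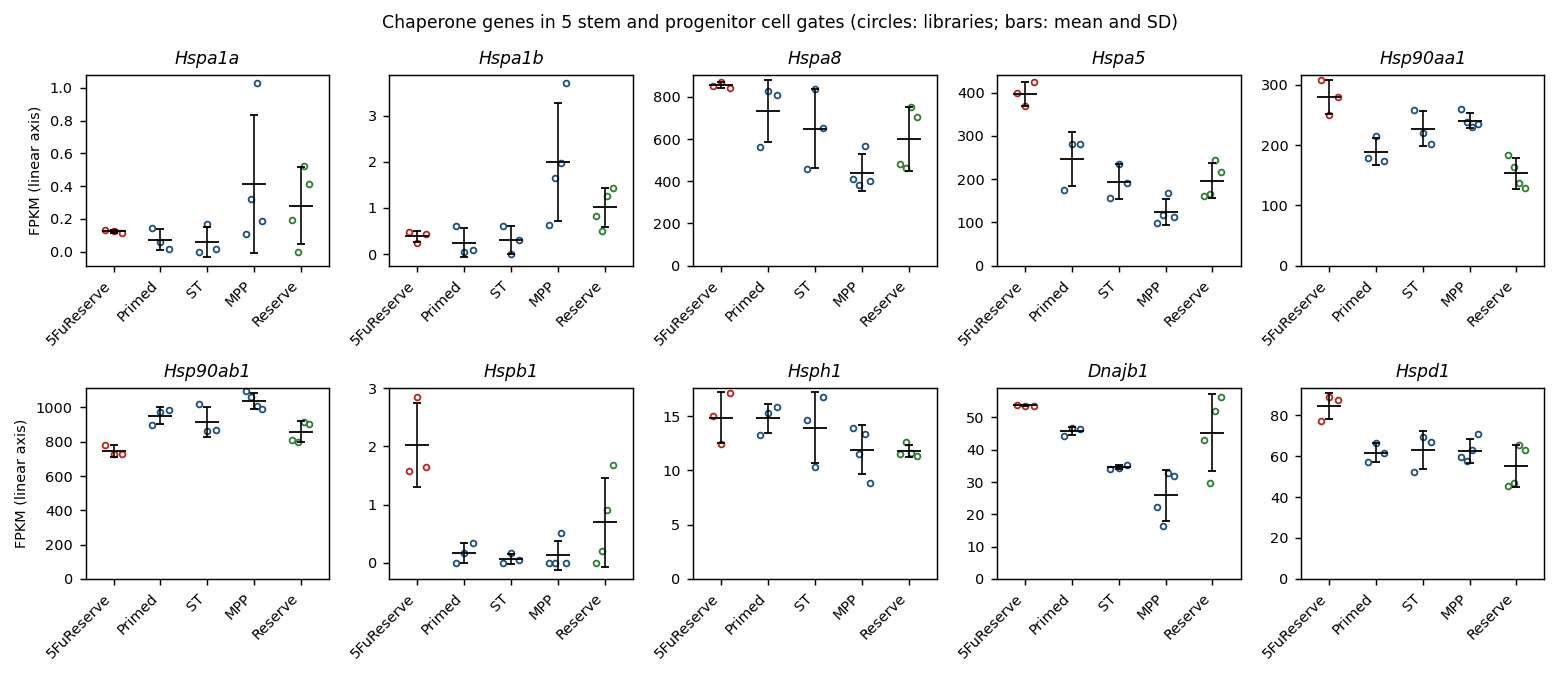
FPKM of the 10 chaperone genes (linear vertical axes, 1 panel per gene) in 5 stem and progenitor cell gates; circles are libraries, bars the mean and SD. For Hspa8, Hspa5 and Hspd1 the 3 libraries of 5FuReserve lie above those of every other gate. For Hsp90aa1 they overlap those of ST and MPP, and Hspa1a stays under 1.1 FPKM in every gate.

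Chaperones outside the list moved in the same comparison. Of the tested genes, 18 of 30 Hsf1 and cytosolic co-chaperone genes rose and 1 fell, 13 of 26 ER chaperone and unfolded protein response genes rose and 5 fell, 6 of 11 mitochondrial chaperone and protease genes rose and 2 fell, and 7 of 8 subunits of the CCT chaperonin rose and none fell. Median log2 fold changes in these lists were 0.60, 0.59, 0.43 and 0.79, against -0.03 over all genes. Levels of genes in these lists are means ± SD over the libraries of a group. Hsp90b1, the HSP90 of the ER, reached 346 ± 58.4 FPKM in 5FuReserve and 94.6 ± 11.6 FPKM in Reserve (log2 fold change 1.85 ± 0.11, limma adjusted p = 7.7e-09). The ER lectin chaperone Calr was at 462 ± 26.5 FPKM in 5FuReserve and 159 ± 6.17 FPKM in Reserve (log2 fold change 1.54 ± 0.09). Cct8, a CCT subunit, had 736 ± 28.6 FPKM in 5FuReserve and 305 ± 54.7 FPKM in Reserve cells. The HSP60 partner Hspe1 had 223 ± 17.4 FPKM in 5FuReserve and 115 ± 4.72 FPKM in Reserve cells. Cct7, Cacybp, Hspa14 and the mitochondrial disaggregase Clpb rose with log2 fold changes of 1.01 ± 0.15, 1.28 ± 0.11, 1.19 ± 0.11 and 1.63 ± 0.32. Without Reserve replicates 3 and 4 the CCT count was 6 of 8, and the ER count was 14 higher and 4 lower of 26.

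Among 5 small heat shock proteins tested, Hspb9 rose to 1.10 ± 0.670 FPKM in 5FuReserve, against 0.220 ± 0.278 FPKM in Reserve (log2 fold change 0.76 ± 0.27). Hspb6 fell to 8.30 ± 0.469 FPKM in 5FuReserve, against 15.0 ± 1.35 FPKM in Reserve (-0.78 ± 0.17). Without Reserve replicates 3 and 4, 4 were tested, and 0 rose and 1 fell. The immediate early genes, which sorting stress also raises, were split, with 4 of 19 higher and 4 lower (6 and 2 without Reserve replicates 3 and 4); Klf2 and Cyr61 rose by 1.95 and 2.43 on the log2 scale. Their summed level was 1445 to 1482 FPKM in 5FuReserve and 1238 to 1786 FPKM in Reserve libraries. Lymphoid transcripts also differed between these gates: 8 of 9 B cell markers and 9 of 10 T and NK cell markers were higher, T and NK sums were 530.4 to 661 FPKM in 5FuReserve and 57.4 to 97.2 FPKM in Reserve, and Pax5, Igll1, Cd3g, Gzma and Cd3e were at 0 in every Reserve library. The part of these cells in the chaperone differences was not tested. The HSPC marker list summed to 1364 to 1533 FPKM in 5FuReserve and 1334 to 1433 FPKM in Reserve, with 1 of 10 genes higher and 7 lower.

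Among the homeostatic gates, the comparisons with Reserve cells asked how chaperone levels differ along the stem and progenitor series. Hsp90aa1 was called as higher in both ST and MPP cells, Hspa5 and Dnajb1 had their lowest means in MPP, and no member passed the test in Primed cells. The 4 comparisons of the HSPC table share the same 4 Reserve libraries, so their results are not independent of each other.

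In Primed cells 0 of 9 tested members were called in limma, with 2 at an unadjusted p under 0.05, where 3.87% of all genes were called, 1.61% as higher and 2.26% as lower. Hspa8 was at 563, 827 and 808 FPKM in Primed libraries and Hspa5 at 174, 281 and 282 FPKM, with ranges that overlapped those of Reserve. Hsp90aa1 was at 178, 215 and 174 FPKM, with a log2 fold change of 0.31 ± 0.13 (limma adjusted p = 0.23), and Hspa1b at 0.606, 0.0470 and 0.0900 FPKM (-0.69 ± 0.30, adjusted p = 0.25). Without Reserve replicates 3 and 4 the count was also 0.

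In ST cells 1 of 9 tested members rose in limma, against 12.7% of all genes called, 6.52% as higher and 6.21% as lower. That member was Hsp90aa1, at 258, 221 and 201 FPKM in ST libraries and 184, 164, 136 and 128 FPKM in Reserve libraries (log2 fold change 0.57 ± 0.13, limma adjusted p = 0.0089). Its call was lost when only the compared groups were fitted (adjusted p = 0.054) and without Reserve replicates 3 and 4, where the log2 fold change was 0.38 (adjusted p = 0.11). The other 8 tested members had limma adjusted p of 0.21 (Hspa1b, log2 fold change -0.63 ± 0.30) or above. Dnajb1 was at 34.0 to 35.2 FPKM in ST cells, inside the Reserve range of 29.6 to 56.3 FPKM.

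In MPP cells 2 of 9 members rose and 2 fell, against 41.0% of all genes called, 12.7% as higher and 28.3% as lower. Hsp90aa1 was at 259, 239, 229 and 235 FPKM in MPP (log2 fold change 0.66 ± 0.12 against Reserve, limma adjusted p = 5.4e-04) and Hsp90ab1 at 1095, 1062, 1008 and 992 FPKM (0.28 ± 0.08, adjusted p = 0.0089). Both HSP90 genes exceeded every Reserve library. Hspa5 fell to 99.5, 117, 168 and 111 FPKM in MPP, against 159.99, 165, 243 and 216 FPKM in Reserve (log2 fold change -0.66 ± 0.20, limma adjusted p = 0.016), and Dnajb1 to 22.2, 16.5, 32.8 and 31.8 FPKM, against 43.1, 29.6, 52.1 and 56.3 FPKM in Reserve (-0.80 ± 0.20, adjusted p = 0.006). The groups overlapped for these 2 genes, and the Hspa5 call was lost without Reserve replicate 3 (adjusted p = 0.057) or MPP replicate 1 (0.051). Both calls depended on Reserve replicates 3 and 4: without them Hspa5 was at -0.41 (adjusted p = 0.21) and Dnajb1 at -0.51 (adjusted p = 0.12), while Hspd1 passed at 0.42 (adjusted p = 0.028). Over all genes the median log2 fold change was -0.20 as deposited and -0.02 after median-of-ratios scaling, and calls as higher made up 31.0% and 48.5% of all calls. Under that scaling Hspa5 was at -0.42 with an adjusted p of 0.077 and Hspd1 at 0.43 with an adjusted p of 0.0091. Hspa8 (-0.43 ± 0.21), Hsph1 (-0.00 ± 0.16), Hspd1 (0.19 ± 0.13) and Hspb1 (-0.50 ± 0.27) did not pass as deposited (limma adjusted p = 0.12, 0.998, 0.26 and 0.15); Hspb1, at 0 to 0.508 FPKM in MPP, passed without Reserve replicate 1 (0.038).

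The inducible pair had its highest HSPC means in MPP. Hspa1b was at 0.640, 1.64, 1.98 and 3.71 FPKM in MPP and at 0.830, 0.501, 1.27 and 1.44 FPKM in Reserve, but the difference did not pass the test (log2 fold change 0.50 ± 0.28, limma adjusted p = 0.17). Without MPP replicate 1, its lowest MPP library, its limma adjusted p was 0.030. Hspa1b passed the filter of 1 FPKM in 3 libraries only through the MPP libraries, where it was high, so that value is no independent result. The only HSPC value of Hspa1a above 1 FPKM was 1.03 FPKM in MPP replicate 3. In the lists outside the members, MPP counts depended on the scaling and on Reserve replicates 3 and 4. As deposited, 11 of 30 cytosolic co-chaperone genes fell and 3 rose, 6 and 4 of 26 ER genes, 5 and 2 of 11 mitochondrial genes, 3 and 2 of 8 CCT subunits and 2 and 0 of 5 small heat shock proteins. Over all genes 28.3% were called as lower and 12.7% as higher, and the co-chaperone and ER counts lay near these shares. All calls numbered 6305 of 16091 genes after median-of-ratios scaling and 4320 of 15830 without Reserve replicates 3 and 4. After median-of-ratios scaling 5 co-chaperone genes fell and 5 rose, 6 and 7 ER genes, 4 and 3 mitochondrial genes and 0 and 2 CCT subunits. Without those 2 libraries 3 co-chaperone genes fell and 2 rose, 2 and 1 mitochondrial genes, 0 and 1 CCT subunits and 1 and 0 small heat shock proteins. Hspe1 rose to 238 ± 49.4 FPKM in MPP, against 115 ± 4.72 FPKM in Reserve (log2 fold change 1.03 ± 0.13), and the HSP90 co-chaperone Ptges3 to 205 ± 12.7 FPKM in MPP, against 134 ± 14.8 FPKM in Reserve. The CCT subunits Cct3 and Cct2 rose in both ST (0.48 and 0.37) and MPP (0.49 and 0.36), as log2 fold changes against the same Reserve libraries; in ST no CCT subunit was called without Reserve replicates 3 and 4.

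Genes that fell in these gates included the small heat shock protein Hspb6, at 4.86 ± 0.548 FPKM in Primed, 6.50 ± 2.09 FPKM in ST and 2.35 ± 0.423 FPKM in MPP, against 15.0 ± 1.35 FPKM in Reserve (limma adjusted p = 1.8e-04, 3.5e-04 and 4.7e-08). Trib3, a target of the unfolded protein response, was at 1.97 ± 1.40 FPKM in ST and 1.67 ± 1.41 FPKM in MPP, against 16.9 ± 0.634 FPKM in Reserve, and Ppp1r15a, which restores translation after stress, at 122 ± 8.71 FPKM in ST and 94.1 ± 15.8 FPKM in MPP, against 258 ± 10.2 FPKM in Reserve. Dnajc7 and Hscb fell in MPP (log2 fold changes -1.26 ± 0.22 and -0.65 ± 0.12), as did Hspb8 (-1.34 ± 0.31). Immediate early genes fell in 14 of 19 cases in ST and 12 of 19 in MPP, with sums of 604 to 713 FPKM in ST and 602 to 697 FPKM in MPP, against 1238 to 1786 FPKM in Reserve; without Reserve replicates 3 and 4 the counts were 11 in each. Fos was at 104 ± 7.74 FPKM in ST and 134 ± 6.99 FPKM in MPP, against 264 ± 27.0 FPKM in Reserve, and Egr1 at 29.6 ± 6.98 FPKM in MPP, against 124 ± 7.28 FPKM in Reserve. In Primed cells Klf2 fell (-0.95) and the HSP90 co-chaperone Fkbp5 rose (0.69); without Reserve replicates 3 and 4, 0 of 30 co-chaperone genes were called in Primed cells, so the Fkbp5 call was lost. The remaining counts were 4 higher and 1 lower of 30 co-chaperone genes, 1 and 3 of 26 ER genes, 1 and 0 of 11 mitochondrial genes and 2 and 0 of 8 CCT subunits in ST, with Hspa14 (0.54), Hsbp1 (0.32) and Hspe1 (0.57) among those higher. Without Reserve replicates 3 and 4 the ST counts were 2 higher and 0 lower of 30 co-chaperone genes, 2 and 2 of 26 ER genes and 0 and 0 of 11 mitochondrial genes, so the Hspe1 call in ST was lost. In Primed cells no gene of the ER, mitochondrial and CCT lists was called in limma, with 2, 0 and 1 at an unadjusted p under 0.05.

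The 10 homeostatic niche populations differed in each member: 10 of 10 passed limma's moderated F test, as did 89.0% of all 18972 genes tested. Over the 8 populations other than Mac and MK 10 of 10 also passed, as did 14666 of all 17984 genes tested there. Most genes thus passed in both tests, as the members did. The populations that carried most of a chaperone were not the same from gene to gene. The inducible HSP70 pair was highest in Ng2_rfp cells, the ER chaperone Hspa5 in Ncad_bone cells, Hspa8, Hsph1 and Dnajb1 in Lepr cells, both HSP90 genes and Hspd1 in Col2.3_GFP cells and Hspb1 in Pecam_GFP cells. Mac libraries were lowest for 9 of the 10 genes, and Nestin_GFP libraries for Hspa1b; after median-of-ratios scaling Nestin_GFP was lowest for Hspa1a too.

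Hspa1a was at 69.5, 79.2, 71.0 and 66.8 FPKM in Ng2_rfp libraries, and the nearest population, Pecam_GFP, had 45.5, 35.1, 19.4 and 21.4 FPKM. Ng2_rfp libraries did not overlap any other population. Below it, MK (19.4 ± 8.21 FPKM), Ncad_bone (17.4 ± 8.02), Lepr (14.6 ± 2.85), Col2.3_GFP (11.9 ± 4.55), Ncad_marrow (8.63 ± 2.07) and Cxcl12_DsR (8.49 ± 2.69) each overlapped their neighbour in this order (mean ± SD). Nestin_GFP and Mac libraries formed the low end, at 1.80, 2, 4.42 and 3.02 FPKM in Nestin_GFP and 1.73, 3.005, 2.48 and 2.32 FPKM in Mac, with no overlap with Cxcl12_DsR. The highest mean was 30.1 times the lowest.

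Hspa1b repeated the order at the top, at 114, 151, 159 and 125 FPKM in Ng2_rfp and 100.4, 79.5, 36.8 and 34.9 FPKM in Pecam_GFP, and had its low end in Mac (8.25 ± 1.40 FPKM) and Nestin_GFP (5.80 ± 3.56 FPKM). Over the 10 group means its Pearson r with Hspa1a was 0.98, for copies that can share reads. The sum of the pair was 45.9 ± 10.6% of the Hspa8 level in Ng2_rfp cells and 0.960 ± 0.369% in Nestin_GFP cells (SD, n = 4 each). Within Pecam_GFP the 4 libraries fell into a higher and a lower pair (100.4 and 79.5, then 36.8 and 34.9 FPKM of Hspa1b). The higher pair, replicates 1 and 2, had the lowest relative depth of the niche libraries. It was 0.319 and 0.254, against 0.574 and 1.30 in replicates 3 and 4. The part of depth in this split was not tested. Sums of immediate early genes were 5077 to 6349 FPKM in Ng2_rfp, 8006 to 10637 FPKM in Nestin_GFP and 437 to 505 FPKM in Mac libraries. Osteoblast transcripts were at 47255 to 53744 FPKM and pericyte and smooth muscle transcripts at 718 to 907 FPKM in Ng2_rfp libraries, the highest of the niche table for both lists. The part of this makeup, and that of digestion and sorting, in the level of the pair was not tested.

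Of the cytosolic HSP70 members, Hspa8 had the highest level in each niche library. Its level was 981 (lowest), 1636 (median) and 1948 (highest) FPKM in the 6 Lepr libraries. Lepr replicates 1 and 3 (1062 and 981 FPKM) were the low ones for Hspa8, Hspa5, Hsp90ab1 and Dnajb1, and also had the lowest immediate early sums (6472 and 6138 FPKM, against 8730 to 10767 FPKM in the others). Nestin_GFP (888 FPKM), Ncad_bone (753), Pecam_GFP (724), Ncad_marrow (608), Cxcl12_DsR (514), Col2.3_GFP (499), Ng2_rfp (464) and MK (412) followed as overlapping neighbours, and Mac stood apart at 116, 107, 118 and 103 FPKM. Dnajb1, which works with Hspa8, had the same extremes, with 128 (lowest), 184 (median) and 234 (highest) FPKM in Lepr and 16.5, 16.2, 15.6 and 13.2 FPKM in Mac libraries; the r of the 2 genes over the 10 group means was 0.90. Hsph1 was also highest in Lepr cells, at 20.8 (lowest), 23.6 (median) and 32.5 (highest) FPKM, above all libraries of the next population, MK (18.9, 20.2, 18.8 and 19.1 FPKM). It was lowest in Ncad_marrow (4.43, 4.27, 4.40 and 5.81 FPKM) and Mac (3.79, 2.92, 2.07 and 2.69 FPKM), each without overlap with the population above it.

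Hspa5 fell into 4 steps. It was at 1617, 1497, 1141 and 1186 FPKM in Ncad_bone, at 721 (lowest), 1298 (median) and 1707 (highest) FPKM in Lepr and at 873, 784, 1056 and 1443 FPKM in Ncad_marrow libraries. Nestin_GFP and Col2.3_GFP averaged 878 ± 233 FPKM and 858 ± 172 FPKM and continued this overlapping upper step. Below a gap came Cxcl12_DsR (505 ± 76.5 FPKM) and Ng2_rfp (467 ± 69.1 FPKM), below a second gap Pecam_GFP (279 ± 77.6) and MK (209 ± 42.9), and last Mac at 75.5, 81.8, 109.6 and 80.6 FPKM. Set against Hspa8 within each library, Hspa5 was 1.84 ± 0.177 times as high in Ncad_bone, 1.75 ± 0.214 times in Col2.3_GFP and 1.69 ± 0.155 times in Ncad_marrow, against 0.798 ± 0.0497 times in Lepr and 0.403 ± 0.0591 times in Pecam_GFP cells (mean ± SD of the ratio). The same ratio stayed between 0.241 and 0.503 in all 17 HSPC libraries.

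The HSP90 pair reached its highest level in Col2.3_GFP cells, with 366, 438, 520.1 and 294 FPKM of Hsp90aa1 and 861, 923, 966 and 858 FPKM of Hsp90ab1. For Hsp90aa1, Lepr (349.8 ± 47.2 FPKM), MK (262 ± 99.1), Cxcl12_DsR (229 ± 25.7), Ng2_rfp (205 ± 25.04), Nestin_GFP (176 ± 27.2), Pecam_GFP (129.95 ± 27.6), Ncad_bone (115 ± 21.2), Ncad_marrow (112 ± 23.5) and Mac (88.1 ± 4.34) followed, with no gap between neighbours. The highest mean was 4.59 times the lowest for Hsp90aa1, 3.79 times for Hsp90ab1 and, similarly, 4.88 times for Hspd1, narrower ranges than those of the other members. For Hsp90ab1 the order after Col2.3_GFP was Lepr, MK, Ncad_bone, Ng2_rfp, Pecam_GFP and Nestin_GFP (727 to 426 FPKM on average), then Cxcl12_DsR (338 ± 35.1) and Ncad_marrow (319 ± 24.3), then Mac (238 ± 13.7). Cxcl12_DsR libraries (highest 362 FPKM) lay below those of Nestin_GFP (lowest 397 FPKM) but overlapped Pecam_GFP (lowest 354 FPKM). Hspd1 likewise peaked in Col2.3_GFP (73.2, 80.8, 92.0 and 70.9 FPKM) and MK (66.1, 71.7, 42.3 and 50.7 FPKM), and the other 8 populations, from Ncad_bone at 39.8 FPKM to Mac at 16.2 FPKM, overlapped their neighbours.

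**Figure D2:**
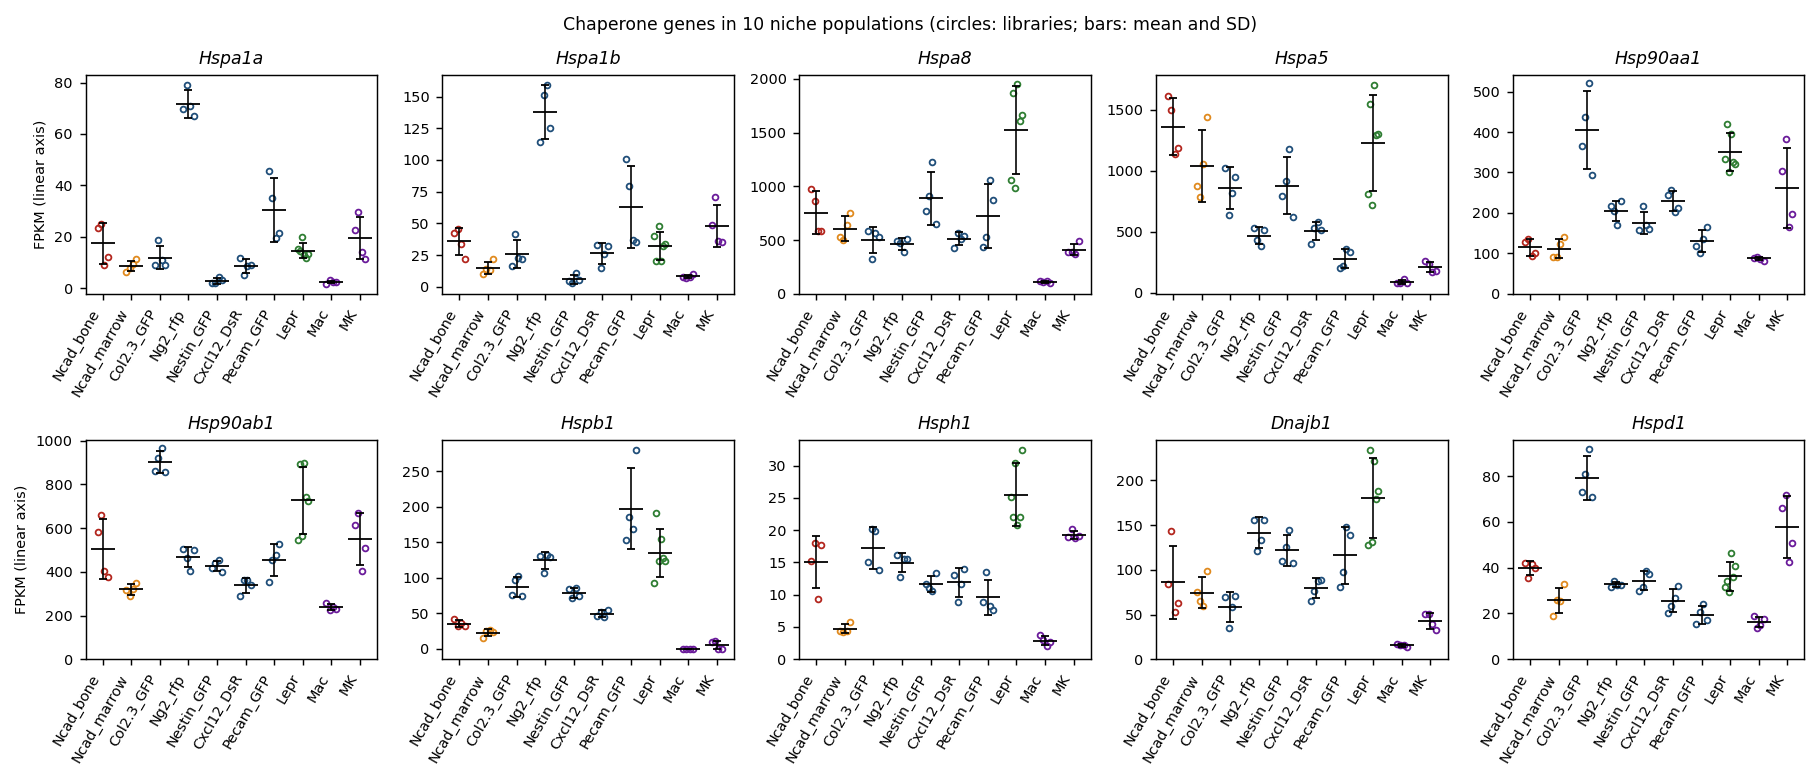
FPKM of the 10 chaperone genes (linear vertical axes, 1 panel per gene) in 10 homeostatic niche populations; circles are libraries, bars the mean and SD. Hspa1a and Hspa1b peak in Ng2_rfp, Hspa8, Hsph1 and Dnajb1 in Lepr, Hsp90aa1, Hsp90ab1 and Hspd1 in Col2.3_GFP, and Mac libraries lie at or near the bottom of each panel.

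Hspb1 ran from its highest mean in Pecam_GFP to 0 in 3 of the 4 Mac libraries. It was at 154, 186, 169.5 and 280.4 FPKM in Pecam_GFP, at 92.2 (lowest), 126 (median) and 192 (highest) FPKM in Lepr and at 131, 107, 133 and 129 FPKM in Ng2_rfp libraries. Col2.3_GFP (87.4 ± 14.4 FPKM) and Nestin_GFP (78.9 ± 6.57), then Cxcl12_DsR (49.3 ± 4.88), then Ncad_bone (35.7 ± 4.55) and then Ncad_marrow (22.9 ± 5.09) formed steps with no overlap from one step to the next. In the CD45+ populations it was at 9.81, 10.5, 0.0810 and 0.470 FPKM in MK and 0, 0, 0.180 and 0 FPKM in Mac libraries. MK replicates 1 and 2, the ones with Hspb1, also had more CXCL12-abundant stroma transcripts (433 and 450.0 FPKM, against 136 and 107 FPKM in MK replicates 3 and 4) and more megakaryocyte transcripts (38718 and 38832 FPKM, against 6071 and 11149 FPKM). The part of either in the Hspb1 level was not tested.

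Comparison of Ncad_bone with Ncad_marrow cells set the same reporter in bone against marrow. Of the 10 members, 5 rose in bone and none fell in limma. Over all genes 24.6% were called, 14.7% as higher and 9.95% as lower. Hspa1a and Hspa1b can share reads, and with the pair summed 4 of 9 were called. The members that rose were the inducible pair, Hsph1, Hsp90ab1 and Hspd1. The members' median log2 fold change was 0.62, against 0.00 over all genes.

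Hsph1 differed most. It was at 15.2, 17.98, 9.37 and 17.7 FPKM in Ncad_bone and 4.43, 4.27, 4.40 and 5.81 FPKM in Ncad_marrow libraries, without overlap (log2 fold change 1.46 ± 0.18, limma adjusted p = 1.0e-07). Hspd1 had 42.1, 35.3, 41.7 and 39.9 FPKM in Ncad_bone and 19.1, 25.8, 25.4 and 32.8 FPKM in Ncad_marrow (0.63 ± 0.16, adjusted p = 0.0044), and Hsp90ab1 582, 658, 403 and 375 FPKM in Ncad_bone and 319, 287, 323 and 347 FPKM in Ncad_marrow (0.62 ± 0.17, adjusted p = 0.0049). These 2 genes were also higher in every bone library. Hspa1b was at 42.4, 45.4, 34.1 and 21.7 FPKM in Ncad_bone and 10.3, 13.997, 13.6 and 21.8 FPKM in Ncad_marrow (1.21 ± 0.35, adjusted p = 0.0096), with the lowest bone library just under the highest marrow library. Hspa1a was at 23.5, 24.95, 9.06 and 12.03 FPKM in Ncad_bone and 6.39, 7.66, 9.30 and 11.2 FPKM in Ncad_marrow (0.84 ± 0.30, adjusted p = 0.035), and its groups overlapped. Its call was lost with no filter (adjusted p = 0.059), after median-of-ratios scaling (0.052), in a fit on the compared groups alone (0.086), and without Ncad_bone replicate 1 or 2 (0.14 and 0.16) or Ncad_marrow replicate 1, 2 or 3 (0.11, 0.082 and 0.053).

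The other members did not pass the test between the sites. Hsp90aa1 was at 129, 137, 92.9 and 101 FPKM in Ncad_bone and 92.2, 92.0, 123 and 139 FPKM in Ncad_marrow (log2 fold change 0.05 ± 0.20, limma adjusted p = 0.93). Hspa8, Hspa5, Hspb1 and Dnajb1 had log2 fold changes of 0.29 ± 0.24, 0.41 ± 0.24, 0.64 ± 0.42 and 0.12 ± 0.25 (adjusted p = 0.44, 0.23, 0.29 and 0.80); among the alternatives run, Hspb1 passed in the fit on the compared groups alone (adjusted p = 0.035). With Hsp90ab1 higher in bone, the ratio of Hsp90aa1 to Hsp90ab1 was 0.233 ± 0.0268 in Ncad_bone and 0.348 ± 0.0523 in Ncad_marrow (SD, n = 4 each).

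In the lists outside the members, 7 of 30 cytosolic co-chaperone genes rose and 3 fell, 10 of 27 ER genes rose and 1 fell, 2 of 11 mitochondrial genes rose and 1 fell, and 3 of 8 CCT subunits and 3 of 7 small heat shock proteins rose, with 0 and 1 lower. After median-of-ratios scaling the ER count was 7 higher and 2 lower. Hspb8 was at 16.3 ± 0.645 FPKM in Ncad_bone and 0.0683 ± 0.0801 FPKM in Ncad_marrow (log2 fold change 4.02 ± 0.25), and Bag3, the co-chaperone that pairs with Hspb8 and HSP70, at 19.0 ± 4.62 FPKM in Ncad_bone and 7.54 ± 0.747 FPKM in Ncad_marrow (1.20 ± 0.16). Hspb2 (2.10 ± 0.15), Hspa4l (2.12 ± 0.29), Cct7 (1.67 ± 0.25), Cct6a (1.32 ± 0.22), the mitochondrial HSP70 Hspa9 (0.73 ± 0.14), the mitochondrial protease Lonp1 (0.70 ± 0.19) and the ER genes Dnajc3 (0.69 ± 0.13) and Hsp90b1 (0.66 ± 0.16) rose as well (limma adjusted p between 5.8e-15 and 0.0064 for these 10 genes). Immediate early genes rose in 5 of 20 cases and fell in 2, with Egr2 at 2.63 ± 0.29 and Fosb at -1.70 ± 0.18. Markers of other cells differed between the sites: pericyte and smooth muscle genes were higher in bone in 8 of 9 cases (105 to 277 FPKM in Ncad_bone, 22.6 to 27.2 FPKM in Ncad_marrow), osteoblast genes in 6 of 10 with 1 lower, erythroid genes in 5 of 9 and neutrophil genes in 5 of 10. CXCL12-abundant stroma genes were higher in 1 and lower in 2 of 10. The part of these cells in the chaperone differences was not tested.

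After 5FU the inducible pair set bone and marrow reporter cells far apart. Hspa1a was at 51.7, 53.8 and 52.8 FPKM in 5Fu_Ncad_tdT_bone and 2.45, 2.13 and 2.96 FPKM in 5Fu_Ncad_tdT_marrow libraries, and Hspa1b at 91.1, 105 and 107 FPKM in bone and 4.76, 3.95 and 5.80 FPKM in marrow. Mean FPKM in bone was 21.0 times that in marrow for Hspa1a and 20.9 times for Hspa1b, with log2 fold changes of 3.94 ± 0.14 and 4.14 ± 0.16 (limma adjusted p = 2.9e-05 and 3.8e-05). The ratio of Hspa1b to Hspa1a was close at both sites, 1.91 ± 0.135 in bone and 1.92 ± 0.0553 in marrow, and the pair together made 24.0 ± 4.03% of the Hspa8 level in bone and 1.36 ± 0.383% in marrow (SD, n = 3 each). In all, 5 of 10 members rose in bone and none fell, where 22.9% of all 13738 genes tested were called, 12.5% as higher and 10.4% as lower.

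The other members that rose did so to a lesser degree. Hsp90aa1 was at 297, 321 and 228 FPKM in 5Fu_Ncad_tdT_bone and 109, 153 and 144 FPKM in 5Fu_Ncad_tdT_marrow (log2 fold change 1.05 ± 0.18, limma adjusted p = 0.0084). Hspd1 was at 52.6, 64.9 and 60.2 FPKM in bone and 33.6, 32.7 and 38.3 FPKM in marrow (0.75 ± 0.13, adjusted p = 0.0079). Hsph1 was at 21.3, 16.8 and 23.7 FPKM in bone and 12.003, 11.4 and 13.1 FPKM in marrow (0.70 ± 0.16, adjusted p = 0.023). None of these 3 genes overlapped between the sites, but neither did Hspa5 (lowest 781 FPKM in bone, highest 761 FPKM in marrow), which was not called. How many of all genes lacked overlap was not counted. The Hsph1 call was lost when any library other than bone replicate 2 was left out (limma adjusted p between 0.051 and 0.078). Hspa8 (0.23 ± 0.18), Hspa5 (0.46 ± 0.19) and Hsp90ab1 (0.19 ± 0.11) did not pass (adjusted p = 0.41, 0.14 and 0.23).

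Hspb1 and Dnajb1 ran the other way in level. Hspb1 was at 69.9, 74.2 and 54.3 FPKM in 5Fu_Ncad_tdT_bone and 96.0, 86.4 and 88.5 FPKM in 5Fu_Ncad_tdT_marrow, and Dnajb1 at 74.3, 68.7 and 63.6 FPKM in bone and 83.5, 102 and 89.7 FPKM in marrow. Every bone library was below every marrow library for both genes, although neither passed the threshold (log2 fold change -0.45 ± 0.14 and -0.40 ± 0.12, limma adjusted p = 0.063 and 0.053). After median-of-ratios scaling both passed (-0.48 and -0.43, adjusted p = 0.049 and 0.039), and Dnajb1 also without marrow replicate 1 (0.044).

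Whether the bone-minus-marrow difference itself differed between 5FU and homeostasis was tested as an interaction over the 14 N-cadherin reporter libraries, in which a constant offset of a gene between the 2 tables cancels. All 5FU niche libraries are in 1 table and all homeostatic ones in the other, so in this interaction 5FU and the table cannot be told apart. In limma 3 of 10 members had a larger bone-minus-marrow difference after 5FU and 1 a smaller one, where 18.9% of all 15421 genes tested were called, 8.23% as higher and 10.6% as lower. The interaction was 3.10 ± 0.42 for Hspa1a and 2.93 ± 0.37 for Hspa1b on the log2 scale (adjusted p = 2.9e-04 and 1.5e-04). Hsp90aa1, which was not called between the sites in homeostasis, had an interaction of 1.01 ± 0.28 (adjusted p = 0.024), lost without 5Fu_Ncad_tdT_bone replicate 1 or 2 or 5Fu_Ncad_tdT_marrow replicate 1 (adjusted p between 0.057 and 0.066). Hspb1 had -1.10 ± 0.25 (adjusted p = 0.0094). For Hsph1 the interaction was -0.75 ± 0.29 (adjusted p = 0.09), and it passed without Ncad_bone replicate 3 (-0.95, adjusted p = 0.011). The remaining 5 members had interactions between -0.52 (Dnajb1) and 0.12 (Hspd1) that did not pass.

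**Figure D3:**
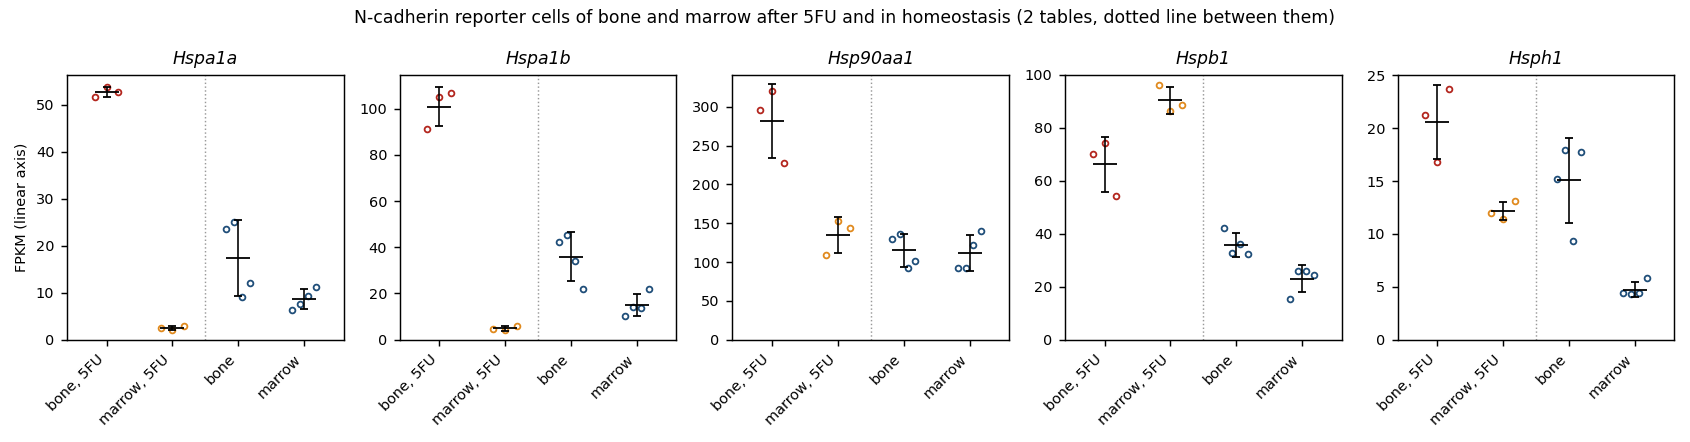
FPKM (linear vertical axes) of Hspa1a, Hspa1b, Hsp90aa1, Hspb1 and Hsph1 in N-cadherin reporter cells of bone and marrow, after 5FU to the left and in homeostasis to the right of a dotted line that parts the 2 tables; circles are libraries, bars the mean and SD. After 5FU the bone libraries of Hspa1a (51.7 to 53.8 FPKM) lie far above the marrow libraries (2.13 to 2.96 FPKM), while Hspb1 is higher in marrow.

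Levels after 5FU and in homeostasis come from separate tables and are set side by side without a test. In bone, Hspa1a averaged 52.7 ± 1.09 FPKM after 5FU and 17.4 ± 8.02 FPKM in homeostasis (SD). In marrow, it averaged 2.51 ± 0.421 FPKM after 5FU and 8.63 ± 2.07 FPKM in homeostasis. The mean after 5FU thus lay above the homeostatic one in bone and below it in marrow, a difference between tables that was not tested. In bone, Hspb1 averaged 66.1 ± 10.5 FPKM after 5FU and 35.7 ± 4.55 FPKM in homeostasis. In marrow, Hspb1 averaged 90.3 ± 5.05 FPKM after 5FU and 22.9 ± 5.09 FPKM in homeostasis. Both means of Hspb1 were higher in the 5FU table. Hsp90aa1 averaged 282 ± 47.9 FPKM after 5FU and 115 ± 21.2 FPKM in homeostasis in bone, and 135 ± 23.2 FPKM after 5FU and 112 ± 23.5 FPKM in homeostasis in marrow. Hspa5 averaged 860.1 ± 79.7 FPKM after 5FU and 1360.2 ± 233 FPKM in homeostasis in bone, and 638 ± 149.8 FPKM after 5FU and 1039 ± 292 FPKM in homeostasis in marrow.

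In the other lists after 5FU, 4 of 30 cytosolic co-chaperone genes, 3 of 27 ER genes and 2 of 8 CCT subunits rose in bone. Of 5 small heat shock proteins 2 rose, and 1 ER gene fell. Over all genes 22.9% were called, 12.5% as higher and 10.4% as lower. The co-chaperone and ER counts of higher genes thus lay close to the share of all genes. After median-of-ratios scaling 2 ER genes and 1 small heat shock protein fell. No mitochondrial gene was called in limma, with 2 of 11 at an unadjusted p under 0.05. The crystallin Cryab, a small heat shock protein, was at 227 ± 18.7 FPKM in bone and 18.9 ± 5.44 FPKM in marrow (log2 fold change 3.55 ± 0.22, limma adjusted p = 2.0e-04), and Hspb2, its neighbour in the genome, at 17.02 ± 1.33 FPKM in bone and 1.32 ± 0.923 FPKM in marrow (3.04 ± 0.32). Dnajb4, a J-domain protein, was at 80.2 ± 4.79 FPKM in bone and 47.2 ± 0.941 FPKM in marrow, and the HSP70 gene Hspa2 at 6.70 ± 0.456 FPKM in bone and 2.82 ± 0.573 FPKM in marrow. Log2 fold changes were 0.69 ± 0.14 for Cct8 and 0.51 ± 0.13 for Tcp1, both CCT subunits, 0.92 ± 0.19 for Ppp1r15a and 0.42 ± 0.10 for the ER J-domain gene Dnajb9. In the interaction, Ppp1r15a (2.52 ± 0.33), Cryab (1.38 ± 0.26) and Dnajb4 (1.09 ± 0.21) were larger and Hspb8 (-3.55 ± 0.35), Hspbp1 (-1.25 ± 0.23), Cct7 (-1.19 ± 0.30), Cct6a (-1.06 ± 0.12) and Canx (-0.98 ± 0.15) smaller after 5FU. Interaction counts were 2 larger and 1 smaller of 30 co-chaperone genes, 1 and 6 of 27 ER genes, 0 and 2 of 8 CCT subunits and 2 and 1 of 5 small heat shock proteins, and no mitochondrial gene was called (3 of 11 at an unadjusted p under 0.05).

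Immediate early genes were split between the sites after 5FU. Of 20 tested, 4 rose and 8 fell in bone, with sums of 2818 to 3366 FPKM in 5Fu_Ncad_tdT_bone and 3378 to 3897 FPKM in 5Fu_Ncad_tdT_marrow. Ier3 rose (280.02 ± 20.8 FPKM in bone and 87.0 ± 8.33 FPKM in marrow) and Klf2 fell (20.3 ± 0.661 FPKM in bone and 66.9 ± 4.18 FPKM in marrow). In the interaction 3 were larger and 2 smaller, with Dusp1 at 1.53 ± 0.26 and Klf2 at -1.38 ± 0.16. The makeup of the libraries moved with the site: osteoblast markers rose in 9 of 10 cases (13221 to 15930.5 FPKM in bone, 3778 to 4456 FPKM in marrow) and CXCL12-abundant stroma markers fell in 9 of 10, with 1 higher (4036 to 4256 FPKM in bone, 12379 to 15716 FPKM in marrow). In the interaction 8 of 10 stroma markers were smaller, and 3 of 10 osteoblast markers were larger with 2 smaller, and 6 of 7 pericyte and smooth muscle markers were smaller. The part of this makeup, and that of digestion and sorting, in the difference of the pair was not tested.

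The N-cadherin reporter cells were next set against Lepr stroma, in 2 comparisons that share the 6 Lepr libraries. Members were lower in the reporter cells: 6 of 10 in Ncad_bone and 8 of 10 in Ncad_marrow, with none higher. Over all genes 33.0% were called in Ncad_bone against Lepr (20.4% higher, 12.6% lower) and 12.6% in Ncad_marrow against Lepr (6.68% higher, 5.95% lower). Hsp90aa1 was at 129, 137, 92.9 and 101 FPKM in Ncad_bone, at 92.2, 92.0, 123 and 139 FPKM in Ncad_marrow and at 301 (lowest), 329.9 (median) and 420.3 (highest) FPKM in Lepr libraries. No reporter library reached the lowest Lepr library, and the log2 fold changes were -1.61 ± 0.18 and -1.65 ± 0.18 (limma adjusted p = 1.2e-08 and 2.2e-08). Hspb1 was at 41.97, 32.6, 36.2 and 32.1 FPKM in Ncad_bone and 15.3, 25.7, 26.0 and 24.5 FPKM in Ncad_marrow, against 92.2 (lowest), 126 (median) and 192 (highest) FPKM in Lepr. No reporter library reached the Lepr range here either (-1.87 ± 0.38 in Ncad_bone and -2.51 ± 0.38 in Ncad_marrow, limma adjusted p = 2.4e-04 and 1.2e-05).

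Hsph1 differed from Lepr by -0.74 ± 0.16 in Ncad_bone and -2.20 ± 0.16 in Ncad_marrow, Hspa8 by -1.003 ± 0.222 and -1.29 ± 0.22, Dnajb1 by -1.13 ± 0.22 and -1.25 ± 0.22 and Hsp90ab1 by -0.54 ± 0.15 and -1.16 ± 0.15 on the log2 scale. All 8 of these values passed the test (limma adjusted p at most 0.0055), although Hsp90ab1 in Ncad_bone did not in a fit on the compared groups alone (adjusted p = 0.062). Hspa5 and Hspa1a passed in neither comparison. Hspa5 was at 0.20 ± 0.22 in Ncad_bone and -0.22 ± 0.22 in Ncad_marrow (limma adjusted p = 0.54 and 0.62), and Hspa1a at 0.15 ± 0.27 in Ncad_bone and -0.70 ± 0.27 in Ncad_marrow (adjusted p = 0.74 and 0.09; 0.020 for Ncad_marrow in a fit on the compared groups alone). Hspa1b and Hspd1 fell in Ncad_marrow, by log2 fold changes of -1.05 ± 0.32 and -0.49 ± 0.15 (limma adjusted p = 0.024 and 0.026), and were at 0.16 ± 0.32 and 0.14 ± 0.15 in Ncad_bone without passing. The Hspa1b call was lost without Ncad_marrow replicate 1, 2 or 3 or Lepr replicate 1 or 3 (adjusted p between 0.050 and 0.11). The Hspd1 call was lost without Ncad_marrow replicate 1 or 3 or Lepr replicate 4 or 6 (0.058 to 0.18) and in a fit on the compared groups alone (0.068). With the replicate number as a block neither gene passed (adjusted p = 0.090 for Hspa1b and 0.1003 for Hspd1).

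Against Lepr, 6 of 30 cytosolic co-chaperone genes rose and 7 fell in Ncad_bone, and 0 rose and 8 fell in Ncad_marrow. Dnaja1, an HSP40 of the cytosol, fell in both, to 93.1 ± 17.7 FPKM in Ncad_bone and 101 ± 7.33 FPKM in Ncad_marrow, against 288 ± 30.3 FPKM in Lepr, and Bag3 fell in Ncad_marrow (-1.06 ± 0.15). ER genes rose in 13 and fell in 5 of 27 cases in Ncad_bone, with Canx at 189.6 ± 15.9 FPKM in Ncad_bone and 98.9 ± 12.5 FPKM in Lepr; in Ncad_marrow 0 rose and 4 fell, among them Atf4 (-0.52 ± 0.08) and Ddit3 (-0.90 ± 0.17). After median-of-ratios scaling 10 ER genes rose and 7 fell in Ncad_bone, and 5 co-chaperone genes rose and 9 fell. Mitochondrial genes rose in 4 and fell in 1 of 11 cases in Ncad_bone, with Hspa9 at 1.01 ± 0.13 and Hspe1 at -0.998 ± 0.241, and none was called in Ncad_marrow (4 at an unadjusted p under 0.05). CCT subunits rose in 2 of 8 cases in Ncad_bone, Cct7 (1.38 ± 0.22) and Cct6a (1.12 ± 0.20), and 1 fell in Ncad_marrow, Cct3 (-0.44 ± 0.14).

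Small heat shock proteins rose in 3 and fell in 1 of 7 cases in each comparison, with Cryab at 29.4 ± 3.47 FPKM in Ncad_bone and 5.74 ± 0.894 FPKM in Ncad_marrow, against 1.98 ± 0.771 FPKM in Lepr, Hspb2 at 5.13 ± 0.638 FPKM in Ncad_bone, against 0.0270 ± 0.0661 FPKM in Lepr, and Hspb8 at -1.58 ± 0.23 in Ncad_marrow. Hspbp1, an HSP70 nucleotide exchange factor, rose in Ncad_bone (1.68 ± 0.23) and Atf4 fell there (-0.73 ± 0.08). Immediate early genes were lower in 9 of 20 cases in each comparison, and higher in 3 in Ncad_bone and 1 in Ncad_marrow. Their sums were 4780.0 to 8715 FPKM in Ncad_bone and 5048 to 9162 FPKM in Ncad_marrow, against 6138 to 10767 FPKM in Lepr. Fosb and Nfkbia had log2 fold changes of -2.83 ± 0.16 and -1.82 ± 0.17 in Ncad_bone, and Ier3 and Atf3 of -1.93 ± 0.17 and -2.31 ± 0.25 in Ncad_marrow. Neutrophil markers were lower in 5 of 10 cases in Ncad_bone (1397 to 10279.5 FPKM) and 6 of 10 in Ncad_marrow (361 to 7747 FPKM), against 11486 to 19493 FPKM in Lepr. The part of either list in the chaperone differences was not tested.

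Between the CD45+ Mac and MK libraries 10 of 10 members were called as lower in Mac, against 31.9% of all genes called, 8.75% as higher and 23.2% as lower. Hspd1 was at 18.8, 13.7, 15.0 and 17.4 FPKM in Mac and 66.1, 71.7, 42.3 and 50.7 FPKM in MK libraries (log2 fold change -1.75 ± 0.16, limma adjusted p = 3.1e-10). Hsph1 was at 3.79, 2.92, 2.07 and 2.69 FPKM in Mac and 18.9, 20.2, 18.8 and 19.1 FPKM in MK (-2.41 ± 0.18, adjusted p = 1.7e-12). Hspa1b was at 7.93, 7.32, 7.44 and 10.3 FPKM in Mac and 49.1, 71.1, 36.3 and 35.4 FPKM in MK (-2.36 ± 0.35, adjusted p = 1.9e-06). The groups were apart in each of these genes. The other 7 had log2 fold changes from -2.52 (Hspa1a) to -1.18 (Hsp90ab1), with limma adjusted p of at most 6.8e-04, the value of Hspb1. Hspb1 ran from 0.0810 to 10.5 FPKM in MK and from 0 to 0.180 FPKM in Mac, so its groups overlapped. Its higher MK libraries were those with more stroma transcripts, as given above. In a fit on the compared groups alone Hspb1 failed the filter, and 9 of 9 tested members were called.

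The members' median log2 fold change was -1.80 where that of all genes was -0.12; after median-of-ratios scaling the median of all genes was 0.00 and calls as higher made up 45.3% of calls, against 27.4% as deposited, and 10 of 10 members were called as lower there too. In the other lists as deposited, 19 of 30 co-chaperone genes fell and none rose, and 18 of 27 ER genes fell and 1 rose. Of 11 mitochondrial genes 7 fell and of 8 CCT subunits 6 fell, with none higher. Of 7 genes listed as small heat shock proteins 1 fell (Hspb11, -1.36 ± 0.20) and none rose. Of 20 immediate early genes 19 fell. After scaling 15 co-chaperone genes fell and 0 rose, 15 and 3 ER genes, 5 and 0 mitochondrial genes, 5 and 0 CCT subunits, 1 and 1 small heat shock proteins and 18 and 0 immediate early genes. Hspe1 was at 59.9 ± 5.87 FPKM in Mac and 433 ± 183 FPKM in MK, Hspa9 at 13.6 ± 1.34 FPKM in Mac and 44.6 ± 12.4 FPKM in MK, and Cct3 at 70.6 ± 6.56 FPKM in Mac and 258 ± 57.3 FPKM in MK. Cct6a, Dnaja1 and Dnajb4 had log2 fold changes of -1.93 ± 0.22, -1.49 ± 0.13 and -2.32 ± 0.28. Atf4 and Ddit3 fell by 1.25 and 1.86 on the log2 scale, and Fosb and Egr1 by 4.88 and 4.38. Neutrophil transcripts summed to 383108 to 554499 FPKM in Mac and 84676 to 365488 FPKM in MK libraries, the megakaryocyte list to 40.2 to 78.5 FPKM in Mac and 6071 to 38832 FPKM in MK, and immediate early genes to 437 to 505 FPKM in Mac and 1731 to 2283 FPKM in MK. The part of these lists in the lower chaperone levels of Mac was not tested.

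**Figure D4:**
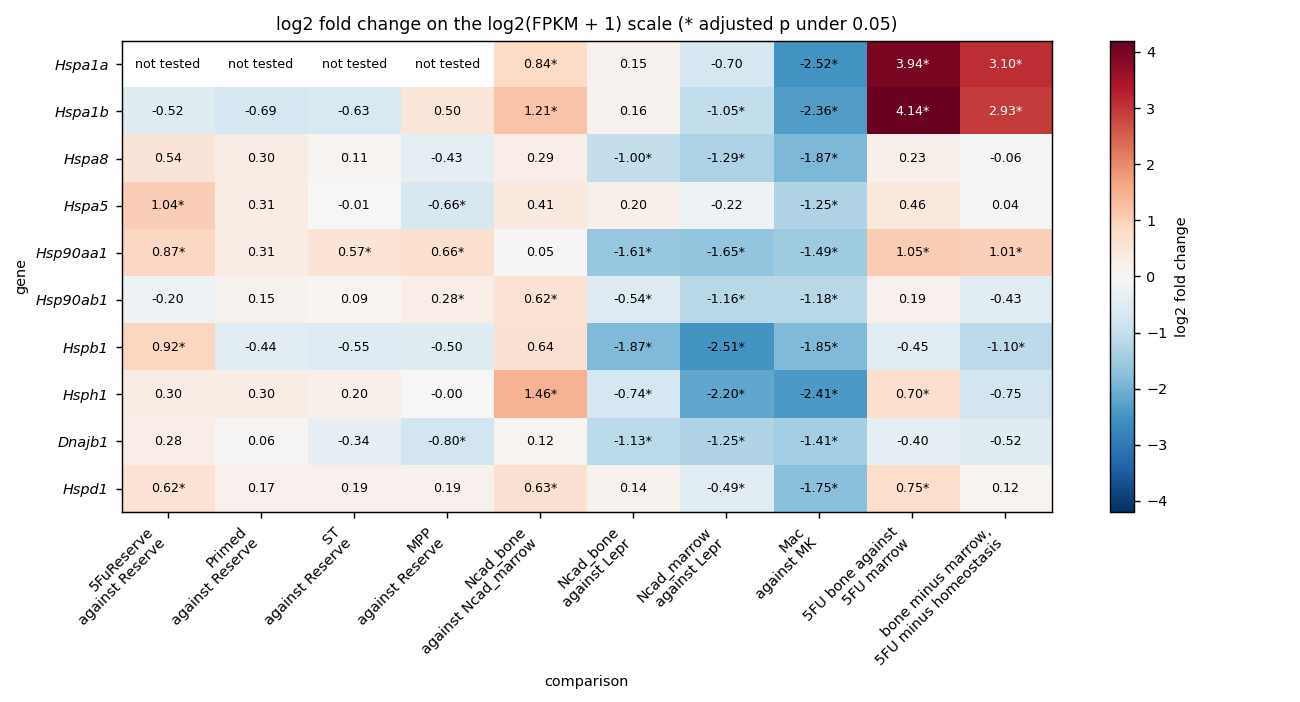
Log2 fold changes of the 10 members (rows) in 10 comparisons (columns) on the log2(FPKM + 1) scale, red for higher and blue for lower in the population named first; an asterisk marks an adjusted p under 0.05 in limma and Hspa1a was not tested in the HSPC table. The 2 reddest cells are Hspa1a and Hspa1b in bone against marrow after 5FU, and the column of Mac against MK is blue throughout.

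Ratios within a library do not depend on its total and set the paralogs side by side. The ratio of Hsp90aa1 to Hsp90ab1 was 0.454 ± 0.0389 in 5Fu_Ncad_tdT_bone and 0.250 ± 0.0333 in 5Fu_Ncad_tdT_marrow cells (SD, n = 3 each). In the HSPC table it was 0.374 ± 0.0260 in 5FuReserve, 0.198 ± 0.0221 in Primed, 0.247 ± 0.0131 in ST, 0.231 ± 0.00612 in MPP and 0.181 ± 0.0419 in Reserve cells. In homeostatic niche cells it ran up to 0.687 ± 0.127 in Cxcl12_DsR. Hsp90aa1 was below Hsp90ab1 in all 65 libraries, with the highest ratio at 0.855. In the 5FU niche table the ratio of Hspa5 to Hspa8 was 1.33 ± 0.0936 in bone and 1.14 ± 0.0382 in marrow. Summed over the 10 members, FPKM reached 4255 ± 1049 in Lepr and 569 ± 26.8 in Mac libraries, 2777 ± 252 in 5Fu_Ncad_tdT_bone against 2107 ± 314 in 5Fu_Ncad_tdT_marrow, and 2433 ± 57.4 in 5FuReserve against 1921 ± 249 in Reserve (mean ± SD), sums to which Hspa8, Hspa5 and Hsp90ab1 give most.

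**Figure D5:**
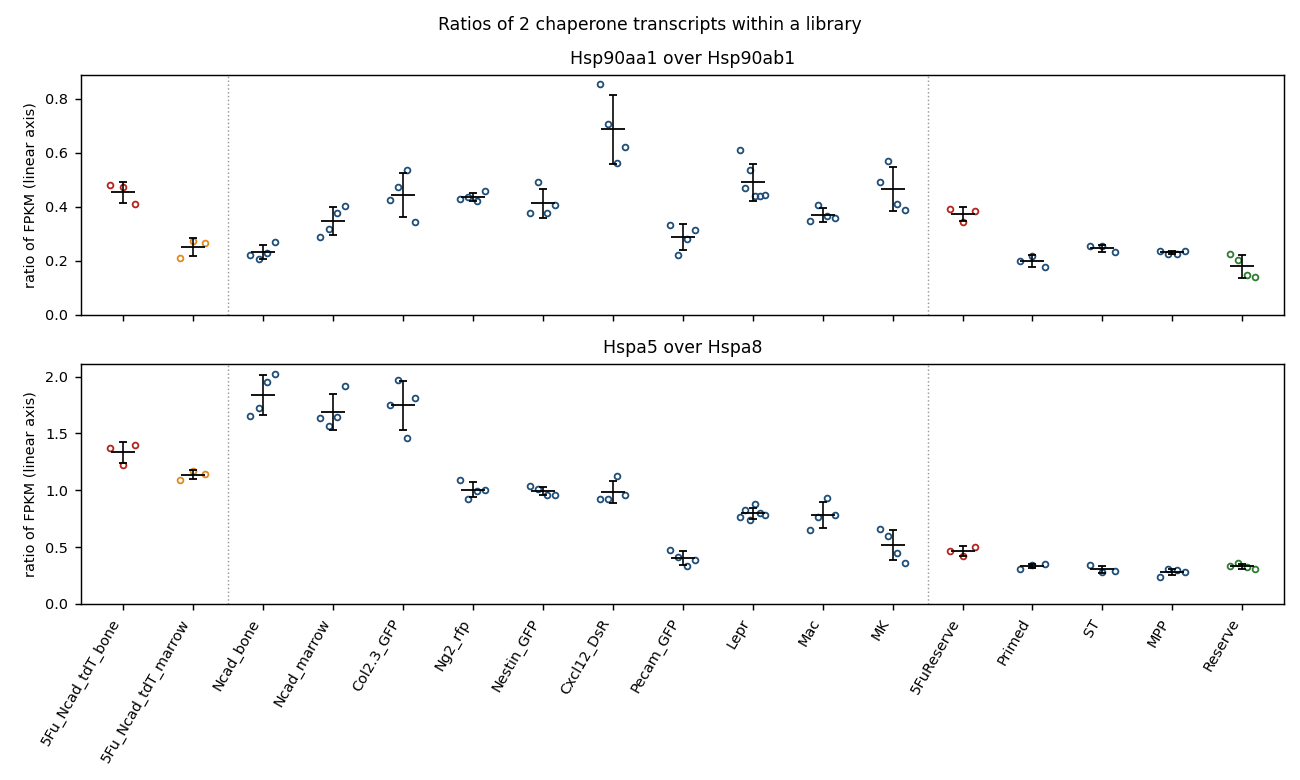
Ratio of FPKM within a library (linear vertical axes) for Hsp90aa1 over Hsp90ab1 (upper panel) and Hspa5 over Hspa8 (lower panel) in 17 groups, with dotted lines between the 3 tables; circles are libraries, bars the mean and SD. Hspa5 exceeds Hspa8 in every library of the 4 N-cadherin reporter groups and of Col2.3_GFP, and stays at 0.503 or below in the HSPC gates.

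The genes nearest to 3 members in pattern over the 10 niche group means are given as a description, from 9767 genes with a mean of at least 5 FPKM. For Hspa1a they were Gm20481 (Pearson r = 0.99), which overlaps it on the other strand, then Rny3 (0.86), Cd59a (0.85), Siah2 (0.85) and Syn3 (0.84). For Hspa8 they were Eif4a1 (0.96), Zfp36l1, Zfp948, Abi2 and Prkar1a (0.92 to 0.93). For Hspa5 they were Snx15 (0.99), Traf4 (0.98), Tmx2 (0.98), Rbbp7 (0.98) and Ercc5 (0.97). Between members, r was 0.91 for Hspb1 and Dnajb1, 0.85 for Hsp90ab1 and Hsph1, 0.83 for Hsp90ab1 and Hspd1 and 0.82 for Hspa8 and Hspa5. Each r rests on 10 points that share libraries, depth and the low values of Mac.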

How the data were processed

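RNA was measured in 65 libraries made from sorted cells with a low-input SMARTer kit, per the labels' protocols. The deposited values are FPKM per gene in 3 tables (17 HSPC, 42 homeostatic niche and 6 niche libraries after 5FU), made by the authors; bcl2fastq 2.18, TopHat2 2.0.13, Cufflinks 2.2.1 and mm10 are named in the submitters' processing notes. The normalization between libraries and the use of strand are not given. FPKM keep no read totals, so depth is unknown, and no counting interval is given; where a gene is at 0 it is listed at 0. Tables listed 44500, 44381 and 47530 genes, of which 15, 28 and 4 lacked a value and were dropped. After 5FU, 3092 of 3149 identifiers without a name were named from the reference.

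From these, log2(FPKM + 1) of genes with at least 1 FPKM in 3 libraries was fitted with limma 3.58.1 (R 4.3.3, intensity trend) over all groups of a table, or over 14 libraries for the interaction. P-values were adjusted by Benjamini-Hochberg over all tested genes in each of 11 comparisons and called under 0.05. Samples were grouped by their labels. Replicate numbers were not used as pairs: same-numbered libraries deviated together with r between -0.12 and 0.08. The fit was tested on simulated data. Sequences, motifs and figures used Python 3.11.15, Biopython 1.88 and matplotlib 3.10.9.

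The members and lists were chosen with earlier results of these data known. Text names all 10 members, up to 2 called genes with the smallest p per other list and comparison, and the 5 genes most like Hspa1a, Hspa8 and Hspa5 over niche group means. Marker genes are named for their lists only. Alternatives were a pseudocount of 0.1, no filter, a mean of at least 5 FPKM, a fit on the compared groups only, median-of-ratios scaling, a replicate block, the pair summed, and each library left out. Fits without Reserve replicates 3 and 4, and without Mac and MK, were chosen after seeing the data.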

Additional observations from a re-analysis of the deposited data

Results flagged for a closer look

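In the test for a single library far from its group, 7 of 120 groups of 4 to 6 libraries were marked, where chance marks about 1 in 20, or 6.0. Hspa8 was high in MPP replicate 3 (568.8 FPKM, others 382 to 412) and in MK replicate 4 (489.1 FPKM, others 376 to 391). Hspb1 was high in MPP replicate 3 (0.508 FPKM, others 0) and in Mac replicate 3 (0.180 FPKM, others 0), and low in Ng2_rfp replicate 2 (107.5 FPKM, others 129 to 133) and in Ncad_marrow replicate 1 (15.3 FPKM, others 24.5 to 26.0). Hsph1 was high in Ncad_marrow replicate 4 (5.81 FPKM, others 4.27 to 4.43).

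The bone-minus-marrow difference of N-cadherin reporter cells differed between 5FU and homeostasis for 4 members in the interaction test (limma, adjusted over all genes): by 3.10 on the log2 scale for Hspa1a, 2.93 for Hspa1b, 1.01 for Hsp90aa1 and -1.10 for Hspb1.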

How the results depend on the processing

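Counts of called members, both directions together, stayed within 1.5 times of the values given under each alternative run, except for ST against Reserve, where 1 member was called and 0 when only the compared groups were fitted or Reserve replicates 3 and 4 were left out (the cause was not tested). Apart from single libraries left out, the split by direction moved in 3 comparisons: 5FuReserve had 4 higher and 0 lower as deposited, 3 and 1 with a mean of at least 5 FPKM and 5 and 1 after scaling, MPP had 2 and 2, then 3 and 1 after scaling and 3 and 0 without Reserve replicates 3 and 4, and bone against marrow after 5FU had 5 and 0, then 5 and 2 after scaling. With each library left out in turn, counts ranged from 3 to 5 for 5FuReserve, 0 to 0 for Primed, 1 to 1 for ST and 3 to 5 for MPP. They ranged from 4 to 5 for Ncad_bone against Ncad_marrow, 6 to 6 for Ncad_bone and 6 to 8 for Ncad_marrow against Lepr, 10 to 10 for Mac against MK and for the 10 niche populations, 4 to 5 for bone against marrow after 5FU and 3 to 5 for the interaction. For single members, 14 calls were lost, 12 gained and 699 values kept their side of the threshold under the other alternatives, against 26, 7 and 1208 with a library left out; no called value changed sign. With the replicate block, 5 members were called for 5FuReserve (Hspa8 passed, adjusted p = 0.039) and 6 for Ncad_marrow against Lepr (Hspa1b and Hspd1 lost), and as many as without it in the 9 other comparisons; same-numbered libraries did not pair, and at most 2 correlated best with their own number. Hspa1a and Hspa1b summed gave 1.12 in Ncad_bone against Ncad_marrow (limma adjusted p = 0.010), 4.22 after 5FU (2.7e-05) and 3.10 in the interaction (1.0e-04). With the pair summed, 4 of 9, 4 of 9 and 3 of 9 were called in these comparisons.

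Over all genes, calls without Reserve replicates 3 and 4 numbered 234 against 626 for Primed, 1295 against 2060 for ST and 4320 against 6626 for MPP. Primed calls fell to 332 and 327 without Reserve replicate 3 or 4 and to 212 and 221 without Primed replicate 2 or 3. Calls of bone against marrow after 5FU numbered 3150, and 1652, 1491 and 1935 without bone replicate 1, 2 or 3 and 2059 without marrow replicate 3. A mean of at least 5 FPKM, which tests fewer genes, gave 342 for Primed, 2842 against 4673 for Ncad_bone against Ncad_marrow, 3760 against 6266 for Ncad_bone against Lepr, 3999 against 6057 for Mac against MK, 2032 after 5FU and 9022 against 16879 for the 10 populations. Low HSPC values of Hspa1a, Hspa1b and Hspb1 are limited by an unknown depth.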
